A study of Mus with 8 samples.

Results

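The genes described here are 10 members of the NRF2 antioxidant pathway, taken by gene symbol from a table of mouse liver expression arrays: Nfe2l2, Keap1, Gclc, Gclm, Slc7a11, Gsr, Txnrd1, Srxn1, Nqo1 and Hmox1. All 10 were found among the 23185 genes that the table names, each with 1 row. The livers carried the genotype label LKB1 KO or Control, with 4 arrays in each group, and all were taken 48 h after partial hepatectomy, the surgical removal of part of the liver. LKB1, the kinase encoded by Stk11, switches on AMPK and its relatives by phosphorylation. The strain, age and sex of the mice, the allele, and any Cre driver or cell type of the deletion were not stated in the labels, nor whether each array came from a separate animal. The p-values therefore reflect only the variation among these arrays, some of which may be technical.

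NRF2, the product of Nfe2l2, is a transcription factor that is made continuously and degraded continuously. KEAP1 holds it in a CUL3 ubiquitin ligase until oxidants or electrophiles modify cysteines of KEAP1. NRF2 then accumulates, pairs with a small MAF protein and binds antioxidant response elements near genes of glutathione synthesis, thioredoxin recycling, quinone reduction and heme breakdown. In the liver this system is best known for the response to reactive drug metabolites. Because NRF2 is controlled mainly through protein stability, the transcript of Nfe2l2 is not a measure of NRF2 activity.

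Stk11 set the labels apart, at 3.98, 3.97, 4.84 and 4.22 log2 units in LKB1 KO 1 to 4, against 6.69, 6.68, 6.46 and 6.76 in Control 1 to 4 (difference -2.39, SE 0.19, limma adjusted p = 0.000453). The arrays had medians of 3.75 to 3.96 log2 units over the named genes and pairwise correlations of 0.960 to 0.988. LKB1 KO 2 had the narrowest spread of values, and LKB1 KO 2 and Control 4 had the lowest mean correlation with their own groups (0.974 and 0.976), so some results are also given without them. The 6 measured hepatocyte markers, such as the albumin gene Alb, averaged between 11.5 and 11.7 log2 units in LKB1 KO arrays and 11.8 in each Control array, near the top of the scale.

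Most of the NRF2 pathway genes had higher means in LKB1 KO livers, but no gene passed the test over all genes. The mean was higher in LKB1 KO for 8 of the 10, and for 12261 of all 23185 genes. The differences of the 10 had a median of 0.41 log2 units, against 0.016 over all genes tested. The 10 were chosen with earlier results of these data known, so contrasts with all genes may restate that choice. The limma fit called 0 of the 10 at an adjusted p under 0.05, while it called 1.98% of all genes. At an unadjusted p under 0.05 it gave 5 of the 10 (Srxn1, Txnrd1, Nqo1, Gsr and Nfe2l2), all of them higher in LKB1 KO, where 5.8% of all genes met that level and were higher. In 4 of the 10 (Srxn1, Txnrd1, Gsr and Nfe2l2) every LKB1 KO array lay above every Control array, which was so for 3.34% of all genes. The exact two-sided permutation test gave these 4 its smallest possible p, 0.0286 unadjusted, which 8.84% of all genes reached in one direction or the other. When each array was centred on its own median, only Txnrd1 kept its groups apart among the 10. With quantile normalization 5 of the 10 did: Srxn1, Txnrd1, Gsr, Nfe2l2 and Nqo1.

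**Figure D1:**
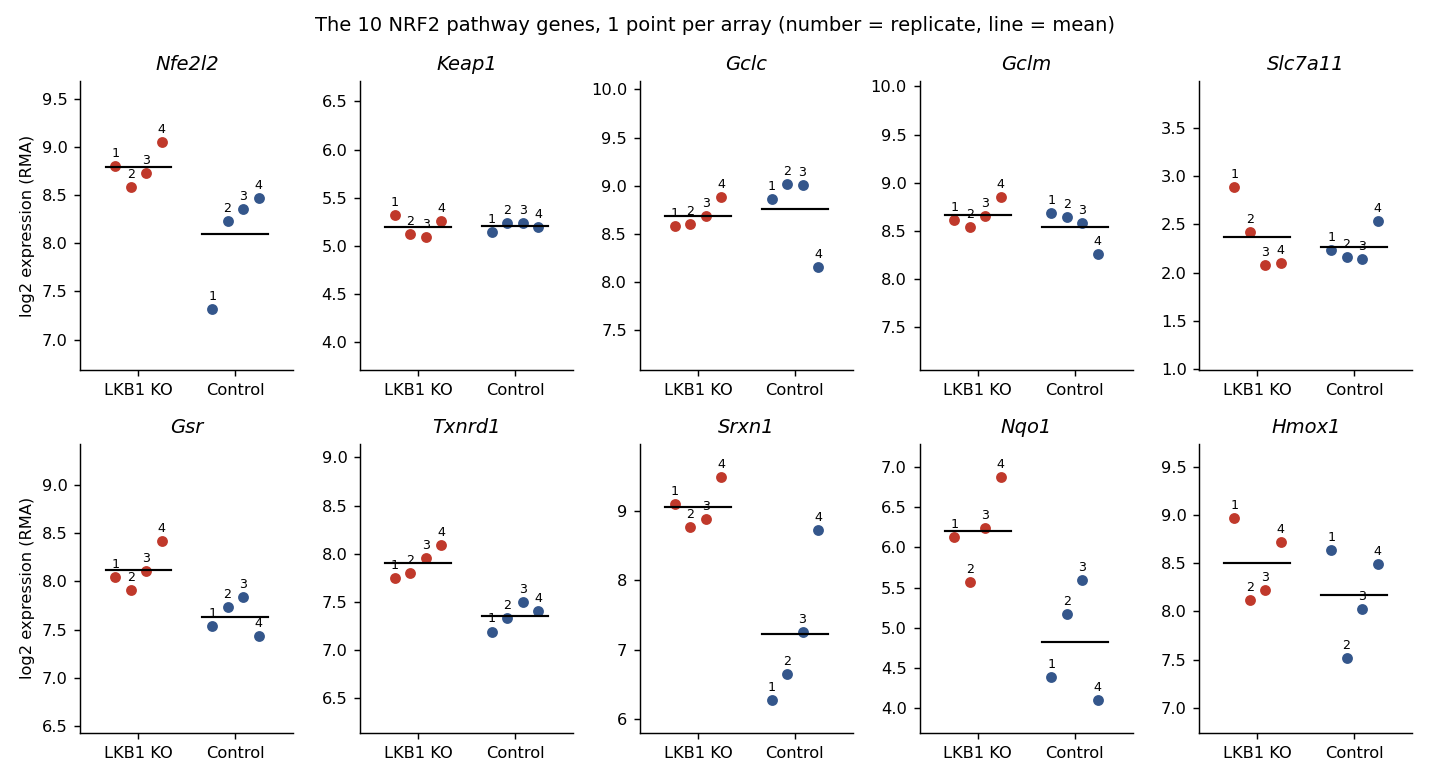
Log2 expression of the 10 genes in each array, with LKB1 KO to the left of Control in each panel, the replicate number above each point and a line at the group mean. The vertical axes differ in position, and those of Srxn1 and Nqo1 span a wider range than the others. The 4 LKB1 KO points of Srxn1, Txnrd1, Gsr and Nfe2l2 lie above all their Control points, and Control 4 lies far above the other Control arrays in Srxn1.

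The regulators stand first in the pathway, and neither was called. Nfe2l2 (Entrez Gene 18024), encoding NRF2 itself, stood at 8.80, 8.59, 8.73 and 9.05 log2 units in LKB1 KO 1 to 4, against 7.32, 8.23, 8.35 and 8.47 in Control 1 to 4. The groups did not overlap, although LKB1 KO 2 lay only 0.11 above Control 4, and Control 1 was low. The difference was 0.70 log2 units (SE 0.24, 95% confidence interval 0.18 to 1.22), a 1.62-fold higher level, with a limma adjusted p of 0.202. Without Control 1 it was 0.44 (adjusted p = 0.262), the largest move among single arrays left out. Keap1 (Entrez Gene 50868), encoding the adaptor that presents NRF2 for degradation, ranged from 5.10 to 5.33 log2 units in LKB1 KO arrays and from 5.14 to 5.24 in Control arrays. Its groups overlapped fully, and the difference of -0.003 log2 units had a confidence interval of -0.26 to 0.25 (adjusted p = 0.996).

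The thioredoxin arm gave the 2 smallest p-values among the 10. Srxn1 (Entrez Gene 76650) encodes sulfiredoxin, which restores peroxiredoxins whose active cysteine has been over-oxidised. It stood at 9.10, 8.77, 8.88 and 9.48 log2 units in LKB1 KO 1 to 4, against 6.28, 6.65, 7.25 and 8.73 in Control 1 to 4. The LKB1 KO arrays lay close together while the Control arrays spread over 2.44 log2 units, and Control 4 reached almost to the lowest LKB1 KO array. The mean was 9.06 ± 0.32 in LKB1 KO and 7.23 ± 1.08 in Control (SD, n = 4 each), a difference of 1.83 log2 units or 3.56-fold (SE 0.43, 95% confidence interval 0.87 to 2.79, limma adjusted p = 0.0638). Leaving out Control 4 raised the difference to 2.33 and gave it a call (adjusted p = 0.00275), as did leaving out both Control 4 and LKB1 KO 2 (2.43, adjusted p = 0.00666). With any other single array left out the adjusted p lay between 0.0994 and 0.180.

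Txnrd1 (Entrez Gene 50493) encodes the cytosolic thioredoxin reductase, a selenoenzyme that passes electrons from NADPH to thioredoxin. Its values were 7.75, 7.80, 7.96 and 8.09 log2 units in LKB1 KO 1 to 4, against 7.19, 7.33, 7.50 and 7.41 in Control 1 to 4. Both groups were tight and the gap between them, 0.25 log2 units, was the widest among the 10 genes. Txnrd1 was 1.46-fold higher (difference 0.54 log2 units, SE 0.13, 95% confidence interval 0.25 to 0.83), with a limma adjusted p of 0.0645. Quantile normalization, a trended and robust prior variance and array weights each gave it a call (adjusted p = 0.0301, 0.0444 and 0.0363), and no single array left out did (0.0767 to 0.176).

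Nqo1 (Entrez Gene 18104) encodes a quinone reductase that is widely used as a readout of NRF2. It stood at 6.13, 5.57, 6.24 and 6.87 log2 units in LKB1 KO 1 to 4, against 4.40, 5.18, 5.60 and 4.11 in Control 1 to 4. The groups overlapped by the narrowest margin, since LKB1 KO 2 lay 0.03 log2 units below Control 3, and 3 of 4 LKB1 KO arrays lay above all Control arrays. The mean was 6.20 ± 0.53 in LKB1 KO and 4.82 ± 0.69 in Control (SD, n = 4 each), a difference of 1.38 log2 units or 2.61-fold (SE 0.34, 95% confidence interval 0.62 to 2.14, limma adjusted p = 0.0755). The exact permutation p was 0.0571. Calls came without Control 3 (1.64, adjusted p = 0.0366), with quantile normalization (1.43, adjusted p = 0.0496) and with array weights (1.42, adjusted p = 0.0364). Without LKB1 KO 2 the groups did not overlap, by 0.53 log2 units, and the difference was 1.59 (limma adjusted p = 0.0600). Without both LKB1 KO 2 and Control 4 the groups did not overlap either, and the difference was 1.36 (limma adjusted p = 0.0761).

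Hmox1 (Entrez Gene 15368), encoding the inducible heme oxygenase, answers to NRF2 and also to release of the repressor BACH1 by heme, and liver macrophages express it as well as hepatocytes. Its values were 8.97, 8.12, 8.22 and 8.72 log2 units in LKB1 KO 1 to 4, against 8.63, 7.51, 8.03 and 8.49 in Control 1 to 4. The groups overlapped, with a difference of 0.34 log2 units (SE 0.27, 95% confidence interval -0.25 to 0.93, adjusted p = 0.650). All 12 macrophage markers had lower means in LKB1 KO, with a median of -0.44. Their mean level per array ran from 5.96 to 6.37 log2 units in LKB1 KO and from 6.28 to 7.09 in Control. Among Control arrays, these markers and Hmox1 had the same order, from Control 1 at the top through Control 4 and Control 3 to Control 2. Among LKB1 KO arrays the order from the top was 4, 1, 2, 3 for the markers and 1, 4, 3, 2 for Hmox1. In whole liver, fewer cells of a type and less RNA per cell cannot be told apart, and the part of macrophages in the Hmox1 values was not tested.

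The glutathione arm holds the enzyme that recycles glutathione and the genes that supply it. Gsr (Entrez Gene 14782), encoding glutathione reductase, stood at 8.05, 7.91, 8.11 and 8.42 log2 units in LKB1 KO 1 to 4, against 7.54, 7.73, 7.83 and 7.43 in Control 1 to 4. The groups did not overlap, by 0.07 log2 units. The difference of 0.49 (SE 0.15, 95% confidence interval 0.16 to 0.82) was 1.40-fold, with a limma adjusted p of 0.159. It was not called under any of the 17 alternatives, in which its adjusted p lay between 0.0698 and 0.330.

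Gclc (Entrez Gene 14629) and Gclm (Entrez Gene 14630) encode the catalytic and the modifier subunit of glutamate-cysteine ligase, the rate-limiting enzyme of glutathione synthesis. Gclc ranged from 8.59 to 8.88 log2 units in LKB1 KO and from 8.16 to 9.02 in Control, and Gclm from 8.54 to 8.85 in LKB1 KO and from 8.26 to 8.69 in Control. The groups overlapped for both genes, and Control 4 was the lowest array for each. The difference was -0.07 for Gclc (95% confidence interval -0.50 to 0.35, adjusted p = 0.914) and 0.12 for Gclm (-0.18 to 0.42, adjusted p = 0.775). Slc7a11 (Entrez Gene 26570), the cystine importer subunit xCT, ranged from 2.08 to 2.89 log2 units in LKB1 KO and from 2.14 to 2.54 in Control. All 8 values lay below 3.73, the 95th percentile of the mean levels of 1354 olfactory and vomeronasal receptor genes, which serves as a gauge of background, so its difference of 0.10 (adjusted p = 0.872) says little about the transcript.

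**Figure D2:**
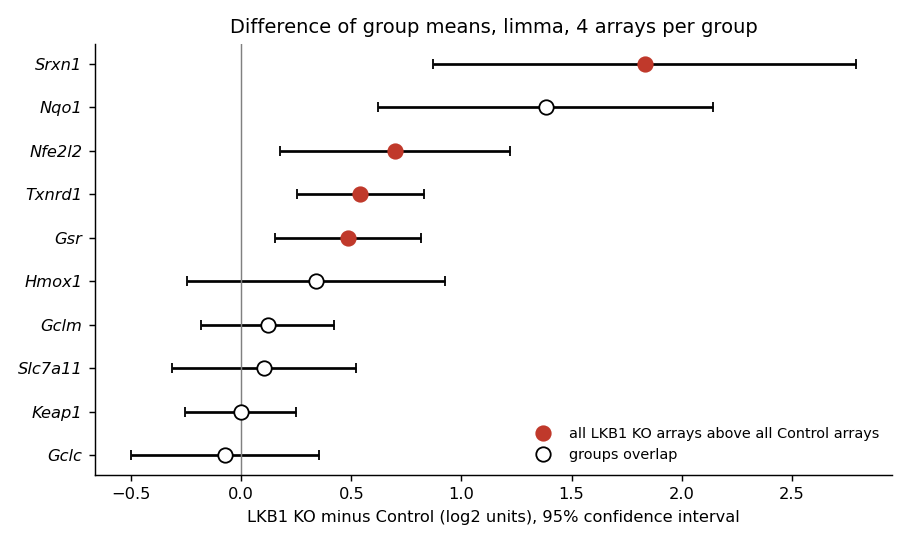
Difference of the group means, LKB1 KO minus Control in log2 units, for the 10 genes with 95% confidence intervals from the limma fit; red points mark genes in which every LKB1 KO array lay above every Control array. The intervals of Srxn1, Nqo1, Nfe2l2, Txnrd1 and Gsr lie above 0, and those of the other 5 include 0.

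Whether genes of one arm differed from each other was tested on the difference between a pair of genes within each array, for 5 pairs chosen after their values had been seen. Gsr minus Gclc averaged -0.57 ± 0.10 log2 units in LKB1 KO and -1.13 ± 0.28 in Control (SD, n = 4 each), without overlap (exact permutation p = 0.0286, and 0.0714 adjusted over the 5 pairs). Nfe2l2 minus Keap1 was higher by 0.70 in LKB1 KO at the same p-values. The pairs Srxn1 minus Txnrd1 (1.29), Nqo1 minus Hmox1 (1.04) and Gclm minus Gclc (0.19) had exact permutation p-values of 0.0857, 0.2 and 0.2. No pair passed after adjustment. With these numbers of arrays and pairs, 1 or 2 pairs without overlap could not have passed, so the adjusted values say nothing for or against unequal change within an arm.

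**Figure D3:**
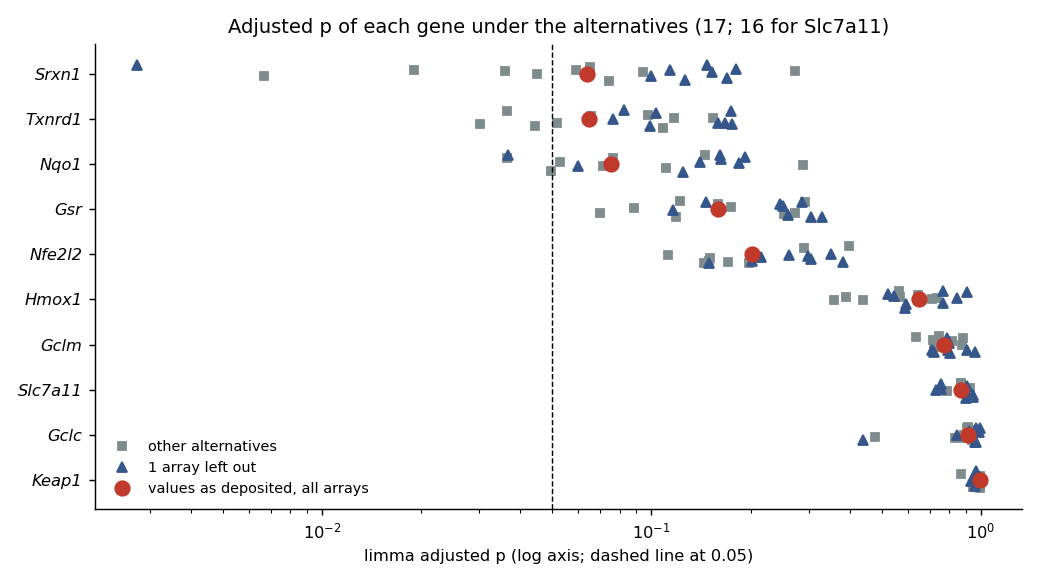
Limma adjusted p of each gene on a log axis, with the values as deposited in red, single arrays left out as triangles and the other alternatives as squares; the dashed line stands at 0.05. Srxn1, Txnrd1 and Nqo1 have points on both sides of the line, and the points of the other 7 genes all lie to its right.

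The other known targets of NRF2 had a smaller median difference than the 10. Both groups of genes were chosen with earlier results of these data known, so the contrast may restate that choice. Of 45 listed, 38 were measured, 25 of them with a mean above that of Control, and their differences had a median of 0.14 log2 units. Of the 38, 1 rose and 1 fell, both among the 8 genes of drug and aldehyde metabolism (median 0.30), where 0.487% and 1.49% of all genes did. Cbr1, a carbonyl reductase gene, rose by 1.00 log2 units (SE 0.21, limma adjusted p = 0.0412). It stood at 8.51, 8.68, 8.99 and 8.80 log2 units in LKB1 KO 1 to 4, against 7.53, 7.54, 8.42 and 7.49 in Control 1 to 4. Ces1g, a carboxylesterase gene, fell to a mean of 6.82 log2 units in LKB1 KO, against 7.92 in Control (difference -1.10, SE 0.22, adjusted p = 0.0295). The call of Cbr1 ended without any single array but Control 3 (adjusted p up to 0.128), without both LKB1 KO 2 and Control 4 (0.122) and with median centring (0.0723), and that of Ces1g without any array but Control 4 (up to 0.0923).

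The remaining targets gave no call. Among 8 glutathione transferase genes, which join glutathione to reactive compounds, the median was 0.26 and Gstm3 (1.28, adjusted p = 0.315) and Gstm1 (0.60, adjusted p = 0.318) had the smallest p. These genes are close relatives, so probes may read more than 1 of them. Gstm3 stood at 10.5, 10.7, 10.3 and 10.8 log2 units in LKB1 KO 1 to 4, against 7.49, 9.65, 10.7 and 9.19 in Control 1 to 4, with Control 3 among the LKB1 KO values. Among 5 genes of glutathione and thioredoxin handling the median was 0.25, with the glutathione synthetase gene Gss at 0.40 (adjusted p = 0.208). Gpx2, a glutathione peroxidase gene, stood at -0.63 (adjusted p = 0.136) but under the background gauge in every array. The 5 NADPH supply genes had a median of -0.08, with the smallest p for Idh1 (-0.38, adjusted p = 0.270) and Me1 (0.31, adjusted p = 0.693). The 12 genes of efflux, iron storage and other roles had a median of 0.11. The smallest p among them belonged to the autophagy receptor gene Sqstm1 (0.22, adjusted p = 0.501) and the bile canalicular exporter gene Abcc2 (0.33, adjusted p = 0.534).

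**Figure D4:**
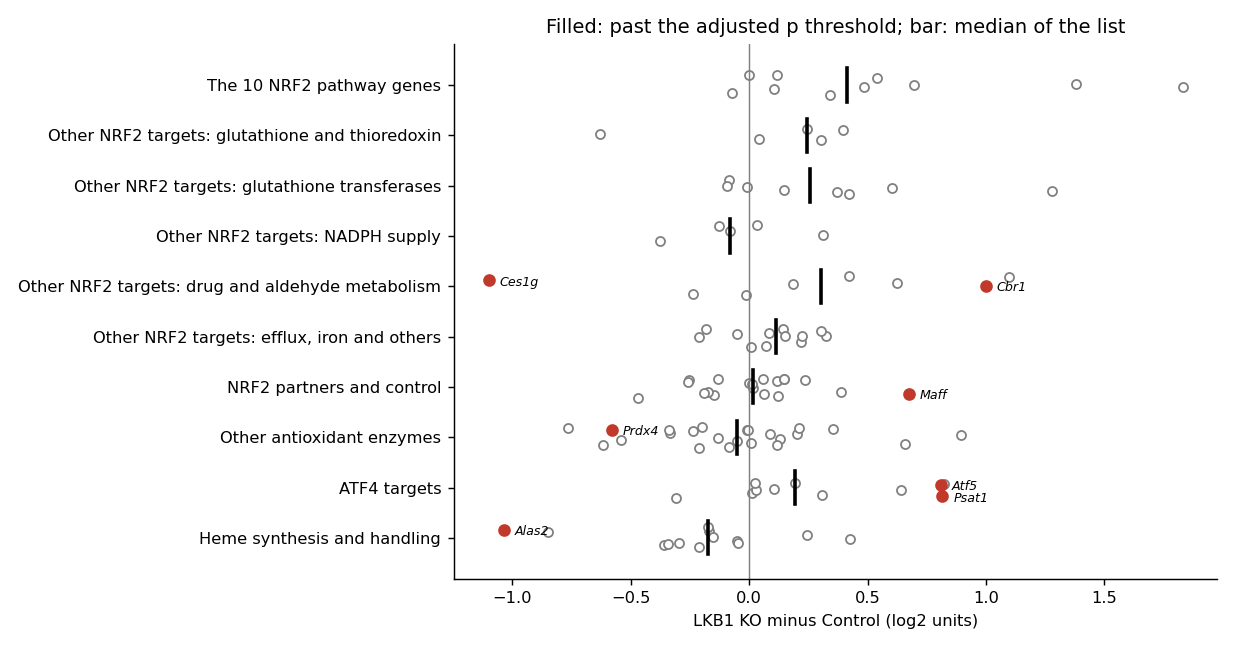
Difference LKB1 KO minus Control in log2 units for each measured gene of the 10 and of the surrounding lists, 1 point per gene, with red filled points past the limma adjusted p of 0.05 and a bar at the median of each list. The bar of the 10 genes stands at 0.41, and the bars of the other NRF2 target lists lie between -0.08 and 0.30.

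Among 19 partners and controllers of NRF2, Maff rose and 0 fell, where 0.487% and 1.49% of all genes did, with a median of 0.015 log2 units. MAFF is one of the small MAF proteins that pair with NRF2, and its gene stood at 5.09, 5.33, 5.38 and 5.0 log2 units in LKB1 KO 1 to 4, against 4.56, 4.45, 4.75 and 4.34 in Control 1 to 4. The groups did not overlap and the difference was 0.68 (SE 0.14, limma adjusted p = 0.0376). Its call ended without any single array but Control 3 (up to 0.117), without both LKB1 KO 2 and Control 4 (0.118) and with median centring (0.0625). The kinase gene Gsk3b stood at 0.39 (adjusted p = 0.252).

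Of 23 antioxidant enzymes outside the NRF2 lists, 9 had higher and 14 lower means in LKB1 KO, with a median of -0.05. Prdx4, encoding the peroxiredoxin of the endoplasmic reticulum, fell (-0.58, SE 0.12, limma adjusted p = 0.0378), a call that ended without any single array (0.0540 to 0.110). Its values were 7.38, 7.16, 7.46 and 7.44 log2 units in LKB1 KO 1 to 4, against 8.05, 7.88, 7.97 and 7.85 in Control 1 to 4, with no overlap. Gpx7, a peroxidase gene of the same compartment, stood at 0.89 (adjusted p = 0.0822), and at 1.15 with a call without LKB1 KO 2 (adjusted p = 0.00556).

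ATF4, a transcription factor of amino acid and endoplasmic reticulum stress, shares Slc7a11 as a target with NRF2. Of 11 measured genes of its list 2 rose and 0 fell (median 0.19), where 0.487% and 1.49% of all genes did. Atf5, itself a stress transcription factor gene, averaged 9.53 log2 units in LKB1 KO and 8.72 in Control (difference 0.81, SE 0.12, limma adjusted p = 0.00901) and kept its call under all 17 alternatives. The serine synthesis gene Psat1 rose by 0.82 (SE 0.17, adjusted p = 0.0347), with a call that held without LKB1 KO 3 or Control 4 and ended without any other array (up to 0.109). All 4 Control values of Psat1, 3.07 to 3.60 log2 units, lay below the background gauge of 3.73, so the size of its rise is uncertain. Of 13 genes of heme synthesis and handling, 11 had lower means in LKB1 KO and the median was -0.17. Alas2, the erythroid heme synthesis gene, fell (-1.03, SE 0.23, adjusted p = 0.0471). That call held without Control 4 and ended without any other array (up to 0.141). Spic, a macrophage factor of heme recycling, stood at -0.85 (adjusted p = 0.205), and at -1.16 with a call without LKB1 KO 4 (adjusted p = 0.0269).

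Of 56 measured markers of hepatocytes and other liver or blood cells, 5 were called, all lower in LKB1 KO. Over all genes 1.98% were called, 0.487% as higher and 1.49% as lower in LKB1 KO. Of 10 endothelial markers, Clec4g (-0.83, limma adjusted p = 0.00663), Gpr182 (-0.68, adjusted p = 0.0191) and Kdr (-0.72, adjusted p = 0.0434) fell and 0 rose, with a median of -0.60 and a mean level per array of 6.10 to 6.26 log2 units in LKB1 KO and 6.48 to 6.83 in Control. Of the 12 macrophage markers Csf1r fell (-0.78, adjusted p = 0.0378) and Cd5l stood at -0.77 (adjusted p = 0.0549). The calls of Kdr and Csf1r ended without any single array but Control 4 for Kdr and Control 2 for Csf1r (up to 0.130 and 0.110), and that of Gpr182 without LKB1 KO 1, LKB1 KO 3 or Control 2 (up to 0.0634). All 6 hepatocyte markers had lower means in LKB1 KO (median -0.15), led by Fgb (-0.42, adjusted p = 0.0929) and Apoa1 (-0.31, adjusted p = 0.293). No call was made among stellate (median -0.23; Rgs5 -1.02, adjusted p = 0.0822; Reln -0.48, adjusted p = 0.131), cholangiocyte (median -0.04; Cftr 0.21, adjusted p = 0.584; Krt19 -0.17, adjusted p = 0.765) or neutrophil and lymphocyte markers (median 0.15; S100a8 -1.07, adjusted p = 0.164; S100a9 -1.07, adjusted p = 0.179). Of the 9 neutrophil and lymphocyte markers, 5 had higher and 4 lower means in LKB1 KO. The mean levels of those 5 all lay below the background gauge of 3.73, so the positive median says little. Rgs5 gained a call without Control 1 (adjusted p = 0.0430). Among 4 erythroid markers (median -0.37) Alas2 fell and the globin gene Hbb-bs stood at -0.86 (adjusted p = 0.385, and 0.0496 without LKB1 KO 4). The other 2 had higher means in LKB1 KO, but mean levels below the background gauge of 3.73. Without moderation of the variances, the calls of the genes named around the 10 ended except those of Atf5, Clec4g and Gpr182, and 1 named gene gained a call. Fgb and Cd5l each had a call under 2 of the 17 alternatives (lowest adjusted p = 0.00492 and 0.0410), but under none with a single array left out. The part of these cell types in the values of the NRF2 pathway genes was not tested.

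The 10 genes did not share one order of arrays. LKB1 KO 4 was the highest array of its group in 7 of the 10, and LKB1 KO 2 the lowest in 6. Such counts were not made over all genes, and LKB1 KO 2 had the narrowest spread of values (SD 1.92 log2 units). These counts are therefore not read as a trait of the 10 genes. Among Control arrays, Control 1 was the lowest for Nfe2l2, Keap1, Txnrd1 and Srxn1, and Control 4 the lowest for Gclc, Gclm, Gsr and Nqo1. Control 4 was thus the highest Control array for Srxn1 and the lowest for Nqo1.

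Genes with profiles most like those of Srxn1 and Nqo1 were sought over the whole table. Likeness was the root mean square difference over the 8 arrays after each gene was centred on its own mean, so it reflects the group difference and the order of arrays within a group, and a shared order restates how these genes were chosen. Closest to Srxn1 were Tnfrsf12a, the TWEAK receptor gene (0.39 log2 units), Cdc42ep5 (0.41), the bile acid efflux gene Slc51b (0.41) and the cytokine gene Il33 (0.44). In all 4, as in Srxn1, Control 4 was the highest Control array. Tnfrsf12a and Slc51b were called higher in LKB1 KO (2.24, adjusted p = 0.0156, and 1.42, adjusted p = 0.0393). The call of Tnfrsf12a ended without LKB1 KO 3, LKB1 KO 4 or Control 2 (up to 0.0525), and that of Slc51b without any array but Control 4 (up to 0.118). Cdc42ep5 and Il33 gained calls without Control 4 (0.00834 and 0.0167). Closest to Nqo1 were Dbf4, the activator gene of a replication kinase (0.17), Cip2a, the gene of a phosphatase inhibitor (0.21), Tpx2, a spindle assembly gene (0.22), and Kif20a, a mitotic kinesin gene (0.23). Each of these 4 was lowest in Control 4 and highest in Control 3 among the Control arrays, as Nqo1 was. None was called (differences of 1.17 to 1.44 log2 units, limma adjusted p from 0.0803 to 0.190).

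**Figure D5:**
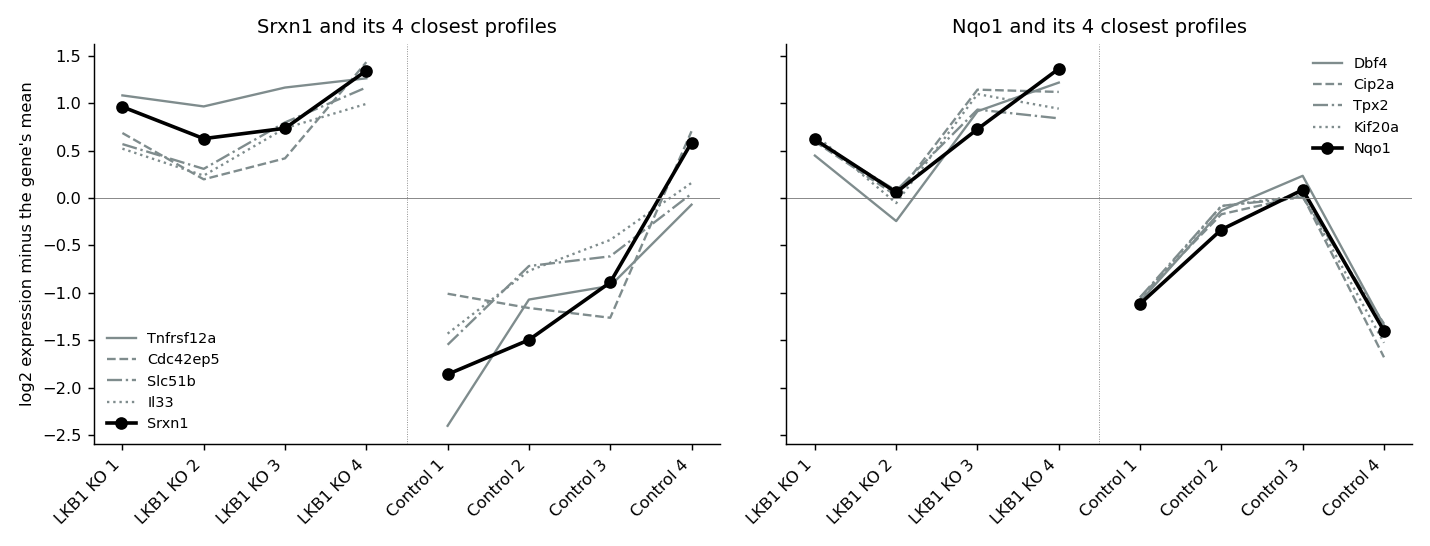
Log2 expression of Srxn1 (left) and Nqo1 (right), in black, and of the 4 genes with the closest profiles, in grey, each minus its own mean over the 8 arrays; LKB1 KO arrays stand left of Control arrays, and lines join the arrays of a group only to show which points belong to a gene. Control 4 is the highest Control array for Srxn1 and the lowest for Nqo1.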

How the data were processed

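Liver RNA of 8 samples, 4 labelled LKB1 KO and 4 labelled Control, was measured on 1 expression array each. Per the labels' protocols, RNA was isolated with TRIzol, amplified to sense cDNA (Ovation PicoSL) and labelled with biotin. The deposited values are log2 expression, which the submitters' processing notes connect with RMA and Partek; no source used here names the array design or the genome build, and coordinates are left out. RMA compresses differences of dim genes. The platform annotation gives exactly 1 symbol for 23185 of the 25206 rows, several for 0 and none for 2021.

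A linear model with the group as its term was fitted to all 23185 genes with limma 3.58.1 in R 4.3.3 (lmFit, eBayes). Tests were two-sided, with Benjamini-Hochberg adjustment over all genes and a threshold of 0.05. The fit was also run on data simulated with independent noise for each gene and array. That check cannot speak to differences that run through a whole array. Differences are LKB1 KO minus Control. The number of arrays limits the precision, and 4 against 4 cannot give an exact permutation p below 0.0286. Probe sets of different genes were not ranked by level.

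The 10 genes and the 16 surrounding lists (177 genes, 159 measured) were chosen with earlier results of these data known. The text names all 10 genes, Stk11, up to 5 called genes of each list or else the 2 with the smallest p, and the 4 closest profiles of Srxn1 and Nqo1. The alternatives were the replicate number as a block, arrays left out, quantile normalization, median centring, removal of the dimmest of 3 equal bins, other variance models, array weights and all 25206 rows. The titles number the arrays 1 to 4 in both groups, and nothing says that equal numbers share an animal; the deviations of same-numbered arrays from their group means correlated at -0.11 to 0.18.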

Additional observations from a re-analysis of the deposited data

Results flagged for a closer look

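None of the 10 NRF2 pathway genes had an array standing apart by Dixon's test of a group of 4. Of 102 groups of 4 tested over these and the other named genes, 8 had one, where chance gives about 1 in 20. The array that stood apart was low for Abcc2 in Control 4 (8.72 log2 units), for Psat1 in LKB1 KO 3 (3.83) and for Rgs5 in LKB1 KO 2 (3.84). It was high for Cbr1 in Control 3 (8.42), for Cdc42ep5 in Control 4 (5.27), for Fgb in Control 4 (12.3), for Gstm1 in LKB1 KO 1 (6.22) and for Cd5l in LKB1 KO 4 (6.71).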

How the results depend on the processing

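The count of NRF2 pathway genes past the threshold was 0 as deposited and 0 with median centring, all rows or no moderation of variances. It was 1 with the replicate block (Srxn1, adjusted p = 0.0358), without both LKB1 KO 2 and Control 4 (Srxn1), without the dimmest genes (Srxn1, 0.0450) and with a trended and robust prior (Txnrd1), 2 with quantile normalization (Txnrd1 and Nqo1), 3 with array weights (Srxn1 at 0.0190, Txnrd1 and Nqo1), and 0 to 1 with single arrays left out. The number of the 10 with every LKB1 KO array above every Control array was 4. It was 5 with quantile normalization or without both LKB1 KO 2 and Control 4, 1 with median centring and 4 to 5 with single arrays left out. By the exact test the number at a p under 0.05 was 4, and 1 to 5 with single arrays left out. It was 5 with quantile normalization and 1 with median centring, alternatives chosen for this test after seeing the data. Called genes of the pathway lists numbered 7 of 104, 4 with the replicate block or median centring, 1 with no moderation of variances and 1 to 5 with single arrays left out. Called cell type markers numbered 5 of 56, 1 with the replicate block, 3 without both arrays or with no moderation, 2 with quantile normalization, 8 with the trended and robust prior and 1 to 4 with single arrays left out. Over all genes 458 were called, 268 with the replicate block, 97 with no moderation, 721 with array weights and 213 to 491 with single arrays left out; 24.7% of calls were higher in LKB1 KO, 36.8% with quantile normalization, 35.2% with array weights and 13.4% with no moderation.

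Among the called genes named around the 10, the replicate block ended the calls of Maff, Prdx4, Alas2, Csf1r, Gpr182 and Kdr (adjusted p up to 0.103), the fit without both LKB1 KO 2 and Control 4 those of Cbr1, Maff, Prdx4, Psat1, Csf1r and Gpr182 (up to 0.124), median centring those of Cbr1, Maff, Prdx4, Kdr and Slc51b (up to 0.0723), and quantile normalization those of Alas2, Csf1r and Kdr (up to 0.0796).

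Signs turned for Keap1, Gclc and Slc7a11 alone among the 51 genes named. Keap1 lay at 0.021 without both arrays, 0.053 with quantile normalization, 0.0041 with array weights and -0.044 to 0.032 with single arrays left out, Gclc at -0.27 to 0.012 and Slc7a11 at -0.068 to 0.20. Over the 17 alternatives, 718 of 864 values for named genes kept direction and side of the threshold, 99 lost a call and 37 gained one; where no value above shows it, the cause was not tested. Removal of the dimmest genes also removed Slc7a11, Gpx2 and Cftr, and dim signal limits their folds.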
